A study of Mus musculus with 66 samples.

Results

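Aminoacyl-tRNA synthetases were followed in mouse germinal centre (GC) and naive B cells cultured for 2 h or 4 h with or without stimulus. The members are 35 genes taken by symbol from the 23420 in each library, a rule that uses no measured value. Of these, 20 encode cytosolic enzymes and 15, with symbols ending in 2, encode mitochondrial ones. The single-letter part of a symbol names the amino acid, so that Aars is the alanyl and Yars the tyrosyl enzyme. All 35 were among the 11264 genes that passed the filter on low values, and each exceeded the filter's log2 value of 1 in all 66 libraries.

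An aminoacyl-tRNA synthetase joins its amino acid to the matching tRNA, the step that fixes how the genetic code is read. The cytosolic enzymes supply the ribosomes that translate nuclear genes, and the mitochondrial enzymes supply the separate ribosomes of the organelle. In mammals several cytosolic enzymes sit in a multi-synthetase complex, and many synthetase genes are targets of ATF4, the transcription factor of the amino acid response. B cells that receive antigen and T cell signals enlarge and raise protein synthesis before they divide.

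All cells came from the spleens of BALB/c mice that carry the IgM B1-8 BCR transgene (MEG), so this receptor is shared by every group, controls included. Cells were isolated with beads. Anti-CD40 stands in for contact with helper T cells, anti-IgM crosslinks the B cell receptor, and IL-21 is a cytokine of follicular helper T cells. Doses and the age of the mice were not given in the sources used here, and replicates are not stated to be separate mice or cultures, which leaves each p-value to measure the spread between these samples only. The libraries form separately normalized sets. Set A holds 34 libraries with anti-CD40 (replicates 1 to 3), IL-21 or IL-21 plus anti-CD40, in groups of 2 or 3. Set B holds 32 libraries without stimulus or with anti-CD40 (replicates 4 and 5), anti-IgM or anti-IgM plus anti-CD40, always 2 to a group. Stimuli are compared only within a set, and unstimulated cells are in set B alone.

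Values are the deposited log2 values, which behave like log2 CPM, and depth is unknown. Differences are log2 differences ± standard error (SE) from limma, fitted over all genes of a set. A gene was called at a Benjamini-Hochberg adjusted p under 0.05 over all genes of the comparison, and the share of all genes called in a comparison and direction is given with the counts. In set B libraries that share a replicate number deviate together within a cell type, so counts from a fit with that number as a block are given where they differ by more than 1.5 times. GC markers, summed on the CPM scale, ran from 490 to 2528 in GC and from 51.4 to 188 in naive libraries of set B, and from 820 to 2225 against 149 to 380 in set A. The 4 naive markers measured summed to 371 to 2040 in GC and 2954 to 8179 in naive libraries of set B. In set A they summed to 194 to 3066 in GC and 1788 to 6302 in naive libraries, so these ranges overlap. Single markers did not all go with the sums. In set A the GC marker Bcl6 had a median log2 value of 6.20 in GC and 6.49 in naive libraries. In set B the naive marker Fcer2a had medians of 9.25 in GC and 9.15 in naive libraries. All other GC and naive markers measured had medians on the side of their sum. Myeloid markers (5 genes) summed to 4.04 to 12.0 in GC and 54.0 to 293 in naive libraries of set B, and T cell markers (4 of 5 present in the files) to 0.170 to 0.844 and 1.57 to 5.75. In set A myeloid markers summed to 28.2 to 71.6 in GC and 53.5 to 158 in naive libraries, and T cell markers to 0.525 to 1.67 and 3.65 to 9.86. Erythroid markers (3 genes) were lower in GC libraries of set B (2.22 to 7.77 against 18.9 to 51.9), while in set A they ran from 34.9 to 108 in GC and from 9.26 to 40.9 in naive libraries. Their part in the differences between GC and naive cells was not tested. In bulk RNA, fewer cells of a type and less RNA per cell cannot be told apart.

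Cytosolic transcripts were the more abundant class. Per kb of annotated exon, the median over the cytosolic members was 4.80 on the log2 scale in unstimulated GC and 5.52 in unstimulated naive B cells, and over the mitochondrial members 1.70 and 2.18. In GC cells the order was led by the valyl enzyme Vars at 6.72 ± 0.22 (SD, n = 4, 2 h and 4 h together) and the glycyl enzyme Gars at 6.44 ± 0.15, whose ranges overlapped. It ended with the mitochondrial methionyl enzyme Mars2 at -0.60 ± 0.19, whose range lay below that of every other member. In naive cells Nars, the asparaginyl enzyme, stood first at 6.62 ± 0.28 and Cars2, the mitochondrial cysteinyl enzyme, last at 0.11 ± 0.20. The glutaminyl enzyme Qars was the lowest cytosolic member in naive cells at 2.88 ± 0.56, and stood at 4.56 ± 0.42 in GC cells. The order is coarse, since the ranges of 29 of the neighbouring pairs in GC and 33 in naive cells overlapped. Gars and Kars encode the cytosolic and the mitochondrial enzyme alike, so their values cover both.

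Between 2 h and 4 h most cytosolic synthetases were called higher in each stimulated group except GC cells under anti-IgM. There 2 of 20 were called, and more with the replicate block. The mean there was higher at 4 h for every cytosolic member but Hars and Rars. In naive B cells of set B 13 of 20 rose under anti-CD40, against 7.83% of all genes called higher, and none fell, against 7.65% called lower. Aars, the alanyl enzyme, was at 6.90 and 7.35 in the 2 h libraries and at 9.63 and 9.64 in the 4 h libraries. Cars, the cysteinyl enzyme, was at 6.27 and 6.15 at 2 h and at 8.77 and 8.29 at 4 h. The times did not overlap for either gene, and the differences were 2.51 ± 0.21 (limma adjusted p = 2e-07) and 2.32 ± 0.26 (adjusted p = 6.14e-06). Lars (leucyl, 1.82 ± 0.16), Yars (tyrosyl, 1.82 ± 0.20), Nars (1.72 ± 0.25) and Mars (methionyl, 1.70 ± 0.26) followed. The median over the cytosolic members was 1.34, over the mitochondrial members 0.33 and over all genes tested 0.03.

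**Figure D1:**
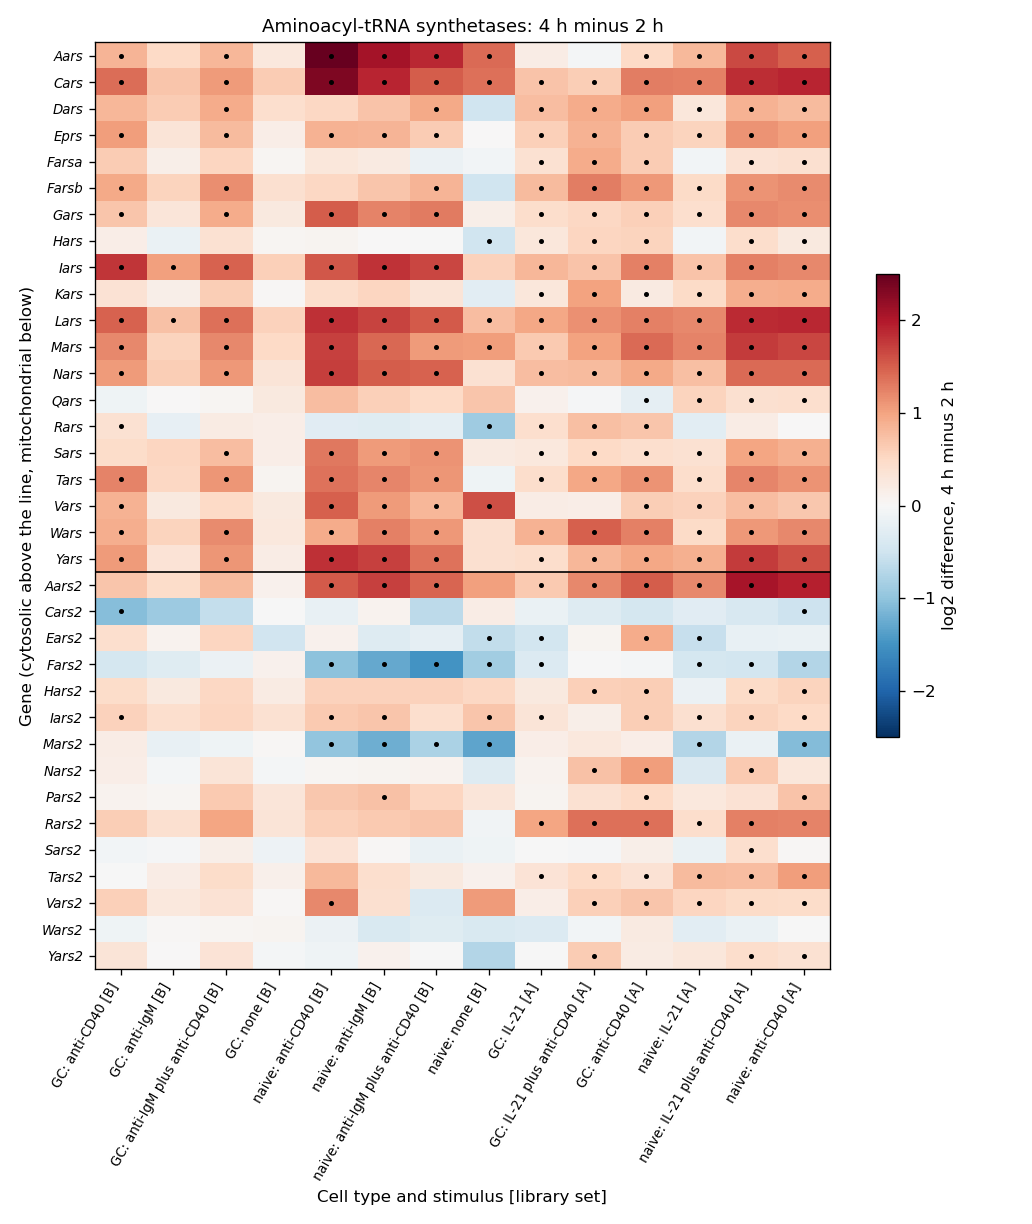
Log2 difference between 4 h and 2 h for each of the 35 members (rows) in each cell type, stimulus and library set (columns), with red for higher and blue for lower at 4 h and a dot where the adjusted p is under 0.05. Most cytosolic rows are red in stimulated cells, with Aars and Cars darkest in naive cells under anti-CD40 (2.51 and 2.32), while Fars2 and Mars2 are blue in naive cells.

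In GC B cells of set B 14 of 20 cytosolic members rose under anti-CD40, beside 4.79% of all genes. Iars, the isoleucyl enzyme, led at 1.79 ± 0.23, with 6.84 and 6.72 at 2 h and 8.36 and 8.78 at 4 h. Lars (1.47 ± 0.16), Cars (1.40 ± 0.26), Tars (threonyl, 1.24 ± 0.22), Mars (1.20 ± 0.26) and Nars (1.07 ± 0.25) came next. The arginyl enzyme Rars rose least among those called, by 0.38 ± 0.12. The median over the cytosolic members was 0.89, against 0.19 for the mitochondrial members and 0.00 for all genes. The count of members of either class called fell from 16 to 7 without replicate 5 of the 2 h anti-CD40 group and to 6 without replicate 5 of the 4 h group.

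Under anti-IgM the cell types gave different counts. In naive cells 13 cytosolic members rose (8.1% of all genes), led by Aars at 2.09 ± 0.21, Cars at 1.91 ± 0.26 and Iars at 1.80 ± 0.23. In GC cells 2 rose (0.462% of all genes), Iars by 1.02 ± 0.23 and Lars by 0.73 ± 0.16, and 11 rose with the replicate number as a block (4.28%). The GC count went to 0 without replicate 1 of the 2 h anti-IgM group or either replicate of the 4 h group, and to 1 without replicate 2 of the 2 h group. For 4 cytosolic genes the difference between the cell types was itself called (1.25% of all genes in either direction), in comparisons chosen after their values were seen. These were Aars at -1.60 (GC minus naive), Yars at -1.36, Gars at -0.95 and Lars at -0.95, and the count was 0 without replicate 1 of the naive 2 h group or replicate 2 of either GC group with anti-IgM. It was 1 or 2 without replicate 1 of the GC 4 h group or either naive 4 h library with anti-IgM. With the block 10 cytosolic members were called, all lower in GC (10.5% of all genes in either direction).

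Anti-IgM plus anti-CD40 gave 14 cytosolic members higher at 4 h in GC cells (4.08% of all genes) and 15 in naive cells (9.79%). GC cells were led by Iars (1.47 ± 0.23), Lars (1.39 ± 0.16), Mars (1.20 ± 0.26), Wars (tryptophanyl, 1.18 ± 0.22), Farsb (a subunit of the phenylalanyl enzyme, 1.15 ± 0.27) and Yars (1.11 ± 0.20). Naive cells were led by Aars (1.88 ± 0.21), Iars (1.68 ± 0.23), Lars (1.53 ± 0.16), Cars (1.52 ± 0.26), Nars (1.47 ± 0.25) and Yars (1.36 ± 0.20). No cytosolic member fell in either cell type, against 4.28% and 10.6% of all genes. The GC count of 14 fell to 3 without replicate 1 of the 2 h group and to 4 without replicate 2 of the 4 h group. The naive count of 18 over both classes fell to 11 without replicate 1 of the 4 h group.

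Without stimulus the picture was mixed. In GC cells no member was called by limma, with 3 cytosolic and 2 mitochondrial members at an unadjusted p under 0.05, and 0.0622% of all genes were called higher. With the replicate block 3 cytosolic members were called higher there (1.91%), Cars (0.63), Lars (0.58) and Dars, the aspartyl enzyme (0.42). In naive cells 5 cytosolic members rose, beside 7.93% of all genes, and 2 fell, beside 7.15%. The risers were Vars (1.61 ± 0.26), Aars (1.43 ± 0.21), Cars (1.38 ± 0.26), Mars (1.05 ± 0.26) and Lars (0.77 ± 0.16). The fallers were Rars at -0.90 ± 0.12 (adjusted p = 8.54e-05) and the histidyl enzyme Hars at -0.51 ± 0.15. With the block the counts were 10 higher (20.2%) and 4 lower (21%), and the count of 11 over both classes fell to 7 without replicate 1 of either unstimulated naive group. The difference between the cell types was called for Rars, at 1.07 (GC minus naive), and 1.15% of all genes were called there. With the block 4 cytosolic members were called higher and 3 lower, with 3 mitochondrial members higher, beside 18.5% of all genes in either direction. In the fit with no block, the count of 1 became 2 or 3 without either anti-CD40 library of either cell type at 2 h, either naive 2 h library with anti-IgM or with both, or replicate 1 of the unstimulated GC 2 h group.

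Set A, with up to 3 libraries a group, gave counts of 17 to 19 cytosolic members higher at 4 h. Under anti-CD40 19 rose and 1 fell in GC cells (26% of all genes higher, 22.1% lower), and 19 rose in naive cells (29.8% higher). Qars was the member that fell in GC cells, at -0.22 ± 0.09. Under IL-21 17 rose in GC (16.9%) and 17 in naive cells (20.7%), with medians of 0.44 and 0.52. Naive Rars under IL-21 was at -0.25 ± 0.11 and was not called (adjusted p = 0.0674). Under IL-21 plus anti-CD40 17 rose in GC (29.3%) and 19 in naive cells (30.7%), with medians of 0.81 and 1.12. The medians under anti-CD40 alone were 0.83 and 1.14. Farsb under IL-21 plus anti-CD40 in GC cells had the smallest adjusted p among the members in these 6 comparisons, 3.63e-15. Its libraries ran from 6.52 to 6.60 at 2 h and from 7.80 to 7.85 at 4 h, which is a difference of 1.27 ± 0.07.

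Mitochondrial synthetases moved in both directions over the same interval, with few called in set B by the fit without the block. In naive cells 1 was called higher without stimulus, 3 under anti-CD40, 3 under anti-IgM and 1 under both, beside 7.93%, 7.83%, 8.1% and 9.79% of all genes. Called lower there were 3, 2, 2 and 2 in the same order, beside 7.15%, 7.65%, 7.57% and 10.6%. In GC cells 1 was called higher (4.79%) and 1 lower (5.44%) under anti-CD40. None was called in GC cells by limma without stimulus, under anti-IgM or under both, where 0.0622%, 0.462% and 4.08% of all genes were called higher and 0.151%, 0.746% and 4.28% lower. At an unadjusted p under 0.05 limma gave 2, 2 and 7 of them. With the block up to 8 were called higher, under anti-IgM plus anti-CD40 in GC cells (14.7% of all genes). More were called with the block in naive cells without stimulus as well, beside 20.2% of all genes higher and 21% lower. Aars2, the mitochondrial alanyl enzyme, rose in naive cells under anti-CD40 (1.54 ± 0.35), anti-IgM (1.71 ± 0.35) and both (1.45 ± 0.35) in set B, and under IL-21 (1.20 ± 0.26), anti-CD40 (1.94 ± 0.23) and IL-21 plus anti-CD40 (2.07 ± 0.23) in set A. Rars2, the mitochondrial arginyl enzyme, rose under each stimulus of set A in both cell types, by 1.38 ± 0.10 in GC and 1.27 ± 0.10 in naive cells under IL-21 plus anti-CD40. Fars2, the mitochondrial phenylalanyl enzyme, fell in naive cells under every condition, from -1.50 ± 0.19 under anti-IgM plus anti-CD40 to -0.44 ± 0.11 under IL-21, where 22.1% of all genes were called lower. Mars2 fell in naive cells without stimulus (-1.31 ± 0.23), under anti-CD40 in either set (-0.99 ± 0.23 and -1.09 ± 0.13), anti-IgM (-1.22 ± 0.23), both together (-0.80 ± 0.23) and IL-21 (-0.73 ± 0.15). In GC cells Mars2 was not called in any of the 7 comparisons of the times, and Fars2 was called in 1, lower under IL-21 (-0.34 ± 0.10). Cars2 was lower in GC cells under anti-CD40 of set B (-1.06 ± 0.27) and in naive cells under anti-CD40 of set A (-0.51 ± 0.19).

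The promoters of several cytosolic members that rose hold the letters TGATGNAA, the composite element that binds ATF4 with a C/EBP protein. RefSeq promoter sequence (GRCm38.p6, 250 bases before to 50 after the start of a gene) was at hand for 13 cytosolic and 13 mitochondrial members. On both strands the letters occurred in promoters of 5 of the 13 cytosolic members (38.5%) and 0 of the 13 mitochondrial ones. Over all 27025 genes in the table the share was 4.51%, where a gene counts if any of its promoters matches. The letters also occurred for 5 of the 22 genes with a promoter at hand from a list of amino acid response genes (Asns, Chac1, Pycr1, Slc7a11 and Trib3). The windows below show these letters in capitals, 5′ to 3′ on the gene's strand, and all but that of Yars hold them as the reverse complement. Aars (chr8:111033704-111033763, + strand) holds them at -112 to -105 from the start and again just past it (chr8:111033840-111033869), Gars (chr6:55037941-55038000, +) at -30 to -23 and Tars (chr15:11399659-11399718, - strand) at -15 to -8. Iars (chr13:49682126-49682155, +) and Yars (chr4:129189895-129189924, +) hold them just past the start.
Aars, upstream: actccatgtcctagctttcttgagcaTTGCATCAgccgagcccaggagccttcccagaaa
Aars, at the start: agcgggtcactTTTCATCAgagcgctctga
Gars: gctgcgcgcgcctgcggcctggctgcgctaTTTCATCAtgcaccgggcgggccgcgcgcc
Tars: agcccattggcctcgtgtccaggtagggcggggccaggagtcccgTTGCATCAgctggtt
Iars: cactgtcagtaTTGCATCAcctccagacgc
Yars: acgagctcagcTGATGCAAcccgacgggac

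Members with and without these letters differed most in naive cells of set B. The median difference between 4 h and 2 h under anti-CD40 was 1.56 for the 5 with the letters (1.36 to 2.51) and 0.65 for the 8 without (0.29 to 1.70). Cars, Lars and Nars, among the largest risers in that comparison, had no promoter at hand. Hars, Rars, Vars and Wars had none either, so these genes are in neither group. Under anti-IgM the medians were 1.71 and 0.70, and without stimulus 0.39 and -0.03. The order was not the same everywhere, since in GC cells the medians were 0.72 with and 0.93 without under IL-21 plus anti-CD40, and 0.44 with and 0.48 without under IL-21. The ranges of these groups overlapped in every comparison of the times. The letters CACGTG were searched as well. They occurred in 4 of the 13 cytosolic promoters (30.8%), those of Aars, Farsb, Iars and Tars. Of the 13 mitochondrial members 1 held them (7.69%), beside 8.09% of all genes in the table. Aars, Iars and Tars hold TGATGNAA too, so the split by TGATGNAA is not independent of CACGTG. A match describes the sequence of a window and not a bound site.

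Against unstimulated cells, averaged over both times, the responses of cytosolic members were broadest in naive cells. Under anti-CD40 11 of 20 rose in naive cells, beside 13.9% of all genes, and none fell, beside 14.8%. The median over the class was 0.51, and Cars (1.09 ± 0.18), Yars (1.08 ± 0.14), Tars (0.89 ± 0.15), Iars (0.86 ± 0.16), Aars (0.82 ± 0.15) and Gars (0.79 ± 0.10) led. Under anti-IgM 11 rose (15.3% of all genes higher) and Vars fell (-0.64 ± 0.18, 15.1% lower), with Yars (0.97 ± 0.14) and Rars (0.85 ± 0.08) leading. Under both stimuli 15 rose (20.7%), led by Yars (1.26 ± 0.14), Iars (1.15 ± 0.16), Cars (1.10 ± 0.18) and Tars (1.05 ± 0.15), and Vars fell (-0.76 ± 0.18, 21.5%). In GC cells 3 rose under anti-CD40 (7.48% of all genes), 2 under anti-IgM (5.81%) and 9 under both (13.9%), and Vars fell under anti-IgM (-0.58 ± 0.18, 3.22%). Tars led under anti-CD40 (0.66 ± 0.15) and under both (0.89 ± 0.15), followed there by Iars (0.86 ± 0.16) and Sars (0.83 ± 0.12). Without replicate 5 of the 2 h anti-CD40 group or replicate 2 of the unstimulated 4 h group the GC anti-CD40 count over both classes fell from 6 to 3. The GC anti-IgM count of 4 fell to 2 without replicate 2 of the unstimulated 2 h group or replicate 1 of either anti-IgM group. With the replicate block these GC counts were 9 (16.9%), 3 (12.4%) and 15 (23.1%).

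Rars was the cytosolic member called in all 6 of these comparisons. In unstimulated naive cells it was at 7.56 and 7.72 at 2 h and 6.79 and 6.69 at 4 h, and under both stimuli at 8.28 and 8.18 at 2 h and 8.01 and 7.96 at 4 h. In GC cells it was at 6.82 and 6.75 at 2 h and 7.03 and 6.88 at 4 h without stimulus, and at 7.41, 7.58, 7.67 and 7.71 under both stimuli. At each time both stimulated libraries lay above both unstimulated ones, and the differences were 0.92 ± 0.08 in naive (adjusted p = 3.99e-08) and 0.72 ± 0.08 in GC cells (adjusted p = 1.83e-06).

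Gars and Yars separated the cell types. Gars in naive cells at 4 h was at 8.10 and 8.04 without stimulus, 9.62 and 9.46 under anti-CD40, 9.43 and 9.31 under anti-IgM and 9.65 and 9.39 under both. In GC cells at 4 h it was at 8.25 and 8.15 without stimulus, 8.52 and 8.61 under anti-CD40, 8.20 and 8.26 under anti-IgM and 8.67 and 8.90 under both. The naive libraries with and without stimulus stood over 1 log2 unit apart, while those of GC cells under anti-IgM overlapped the unstimulated ones.

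The mean response of Gars was smaller in GC than in naive cells by a direct test under anti-CD40 (-0.65 ± 0.15, adjusted p = 0.0144), anti-IgM (-0.74 ± 0.15, adjusted p = 0.00317) and both (-0.64 ± 0.15, adjusted p = 0.007). Yars (-0.87 ± 0.20) and Rars (-0.40 ± 0.12) also differed under anti-IgM. No cytosolic member had the larger response in GC cells by this test. The background for a smaller response in GC was 1.46% of all genes for anti-CD40, 3.82% for anti-IgM and 4.82% for both. With the block 5, 10 and 7 cytosolic members were called smaller in GC, beside 8.42%, 14.6% and 15.1%.

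The seryl enzyme Sars responded to anti-IgM in GC cells but was not called there under anti-CD40. Its GC libraries at 4 h were at 7.39 and 7.10 without stimulus, 7.53 and 7.57 under anti-CD40, 8.27 and 8.26 under anti-IgM and 8.18 and 8.57 under both. The libraries with anti-IgM lay above all the others. The mean difference from unstimulated cells was 0.84 ± 0.12 under anti-IgM (adjusted p = 6.93e-05), and anti-IgM added to anti-CD40 raised Sars by 0.67 ± 0.12 (adjusted p = 0.000667). Set directly against anti-CD40, anti-IgM gave more Sars in GC (0.68 ± 0.12, adjusted p = 0.000312) and in naive cells (0.51 ± 0.12, adjusted p = 0.00378).

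The threonyl enzyme Tars, by contrast, was called in GC cells under anti-CD40 and not under anti-IgM. At 4 h it was at 6.92 and 6.93 without stimulus, 8.05 and 8.31 under anti-CD40, 7.28 and 7.45 under anti-IgM and 8.23 and 8.45 under both. The anti-IgM libraries sat between the unstimulated ones and those with anti-CD40. Anti-CD40 added to anti-IgM raised Tars by 0.68 ± 0.15 (adjusted p = 0.00455). The direct difference between anti-IgM and anti-CD40 in GC cells was called at 4 h (-0.81 ± 0.22, adjusted p = 0.0142) but not over both times (-0.45 ± 0.15, adjusted p = 0.051). Lars was lower under anti-IgM than under anti-CD40 in naive cells (-0.50 ± 0.11, adjusted p = 0.0027).

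**Figure D2:**
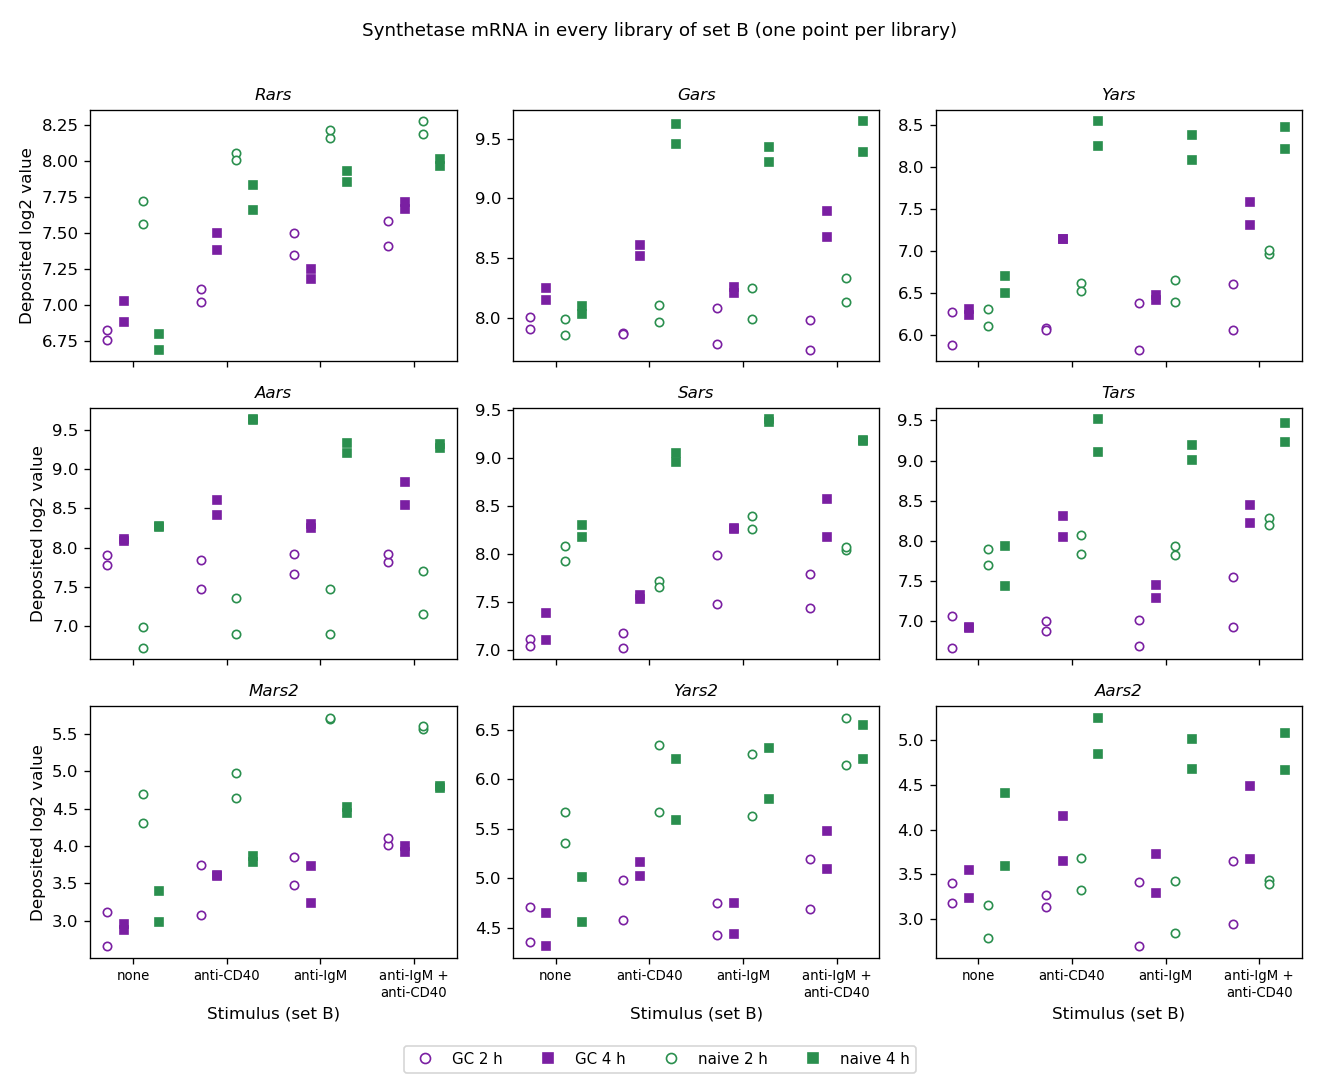
Log2 value in every library of set B for selected members, by cell type, stimulus and time, with 1 point for each library. In naive cells at 4 h the stimulated libraries of Rars, Gars and Yars lie above the unstimulated ones, and Sars in GC cells is high in the libraries with anti-IgM (8.18 to 8.57 at 4 h).

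Split by time, fewer members were called at 2 h than at 4 h in naive cells. Cytosolic members called higher at 2 h numbered 0 in GC and 1 in naive cells under anti-CD40 (2.15% and 3.48% of all genes), 2 and 1 under anti-IgM (2.38% and 5.43%) and 2 and 3 under both (6.46% and 9.41%). For the count of 0, limma gave 2 cytosolic members at an unadjusted p under 0.05. With the block 8 cytosolic members were called higher at 2 h in naive cells under both (20.9%) and 2 under anti-CD40 (12.4%). Rars was called at 2 h in 5 of the 6 comparisons, by 0.70 ± 0.12 in GC cells under both stimuli. Cars (1.03 ± 0.26) and Yars (0.78 ± 0.20) were the other cytosolic members called in naive cells under both. Over both classes the counts at 2 h were 1 to 5 where not 0, and each of these fell when certain single libraries were left out. The GC count of 2 under anti-IgM went to 1 without replicate 1 and to 0 without replicate 2 of the unstimulated group, and to 0 without replicate 2 of the anti-IgM group. The GC count of 4 under both went to 2 and 1 without those unstimulated libraries and to 2 without replicate 2 of the stimulated group. The naive count of 5 under both went to 3 without replicate 1 of the unstimulated or replicate 2 of the stimulated group, and the count of 2 under anti-IgM to 1 without that unstimulated library. The naive count of 1 under anti-CD40 went to 0 in 28 of the fits that leave out 1 library.

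At 4 h the counts in naive cells were 15 of 20 higher under anti-CD40 (12.9% of all genes), 15 under anti-IgM (14%) and 16 under both (19.1%). In GC cells they were 5 under anti-CD40 (6.8%), 1 under anti-IgM (3.13%) and 13 under both (11.2%), and with the block 15, 3 and 16 (15.6%, 8.81% and 21.5%). Yars led in naive cells at 1.80 ± 0.20, 1.63 ± 0.20 and 1.75 ± 0.20, and Tars in GC cells at 1.25 ± 0.22 under anti-CD40 and 1.41 ± 0.22 under both. The cytosolic exception was Vars in naive cells, lower at 4 h under anti-IgM (-0.91 ± 0.26, 13.1% of all genes) and under both (-1.15 ± 0.26, 19%). Its mitochondrial counterpart Vars2 was also lower in naive cells under both at 4 h (-1.08 ± 0.36). The naive anti-CD40 count of 19 over both classes fell to 12 without replicate 4 of the 4 h anti-CD40 group. The GC count of 16 under both stimuli fell to 10 without replicate 2 of the 4 h group.

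**Figure D3:**
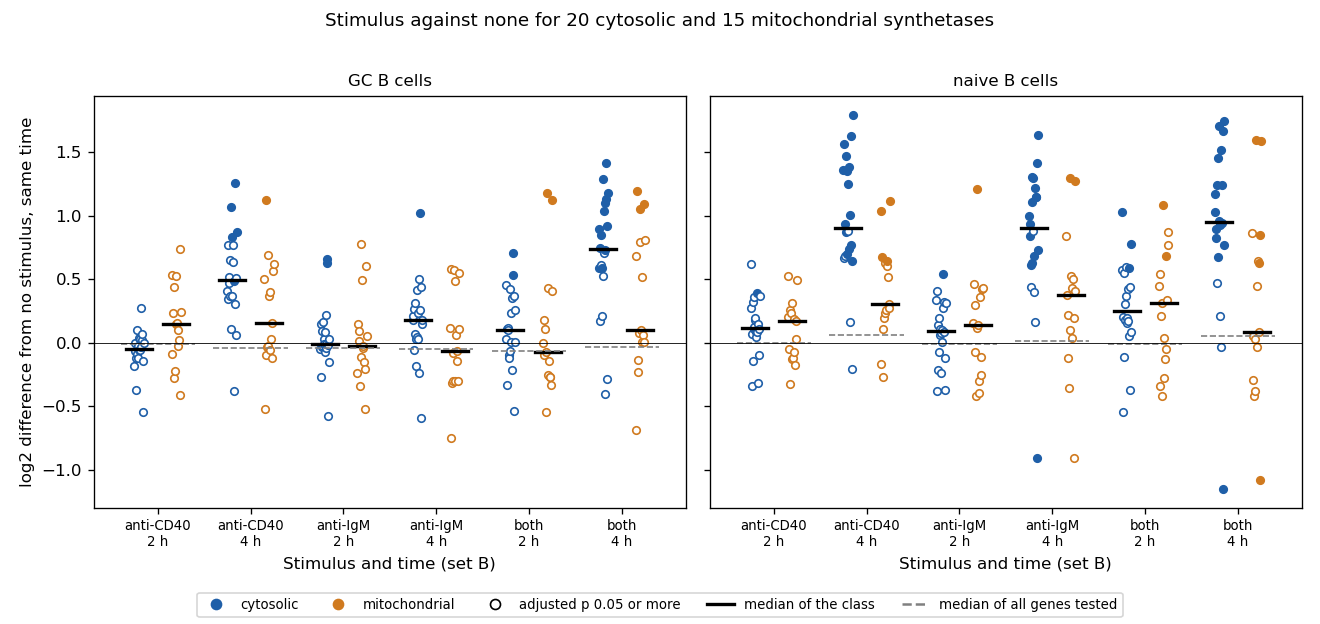
Log2 difference from unstimulated cells at 2 h and at 4 h for the members of each class, by stimulus and cell type in set B, with 1 point for each member, filled where the adjusted p is under 0.05, and a bar at the class median. Cytosolic members are higher at 4 h, with class medians of 0.91, 0.91 and 0.95 in naive cells and 0.50, 0.18 and 0.74 in GC cells under anti-CD40, anti-IgM and both.

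The larger response at 4 h was itself tested in comparisons chosen after their values were seen. In naive cells it was called for 5 cytosolic members under anti-CD40 (0.923% of all genes), 6 under anti-IgM (1.69%) and 9 under both (4.47%). With the block these were 16 (9.22%), 15 (10.9%) and 13 (17.8%). Gars, Lars, Tars and Yars were called in all 3 without the block, with Tars at 1.47 ± 0.31, 1.33 ± 0.31 and 1.23 ± 0.31. In the fit with no block, each of the 3 counts fell to 1 without replicate 2 of the unstimulated 4 h group. The count under anti-CD40 was also 1 without replicate 4 of its 4 h group, and 2 or 3 without replicate 5 of its 2 h group or either unstimulated 2 h library. The count under anti-IgM was also 1 without replicate 1 of either anti-IgM group, and 2 or 3 without replicate 1 of either unstimulated group or replicate 2 of the 4 h anti-IgM group. The count under both was also 1 without replicate 1 of its 4 h group, and 3 to 5 without either of its 2 h libraries, either unstimulated 2 h library or replicate 1 of the unstimulated 4 h group. In GC cells limma called 0 in each, with 8, 1 and 7 cytosolic members at an unadjusted p under 0.05 (0.249%, 0% and 0.204% of all genes called higher). With the block 8, 0 and 9 were called (3.78%, 0.124% and 3.66%).

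Among mitochondrial members Mars2 was called higher under each stimulus of set B in both cell types, and Yars2 under each in naive cells. Mars2 in naive cells at 2 h was at 4.30 and 4.70 without stimulus, 5.70 and 5.72 under anti-IgM and 5.57 and 5.61 under both. At 4 h it was at 2.99 and 3.40, 4.53 and 4.45, and 4.80 and 4.78 in the same order. The libraries with anti-IgM, alone or with anti-CD40, lay above the unstimulated ones at either time, with mean differences of 1.25 ± 0.16 (adjusted p = 8.59e-06) and 1.34 ± 0.16 (adjusted p = 1.93e-06). Under anti-CD40 alone the naive libraries overlapped the unstimulated ones at 2 h (4.64 and 4.98) and not at 4 h (3.79 and 3.86). GC libraries under anti-CD40 alone also overlapped at 2 h (3.08 and 3.75 against 3.12 and 2.66). They did not at 4 h (3.60 and 3.61 against 2.95 and 2.87). In GC cells Mars2 rose by 0.61 ± 0.16 under anti-CD40, 0.68 ± 0.16 under anti-IgM and 1.11 ± 0.16 under both. Yars2, the mitochondrial tyrosyl enzyme, rose in naive cells by 0.80 ± 0.22, 0.85 ± 0.22 and 1.23 ± 0.22. Its naive libraries at 4 h were at 5.01 and 4.56 without stimulus, 6.21 and 5.59 under anti-CD40, 6.32 and 5.80 under anti-IgM and 6.55 and 6.20 under both. Every stimulated library lay above both unstimulated ones, and replicate 1 (numbered 4 under anti-CD40) was the higher each time.

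Wars2, the mitochondrial tryptophanyl enzyme, rose in GC cells under both stimuli by 1.11 ± 0.21. At 2 h it was at 3.24 and 3.08 without stimulus and at 4.42 and 4.14 under both, and at 4 h at 3.48 and 2.98 and at 4.61 and 4.04. The groups did not overlap at either time. Aars2 in naive cells at 4 h was at 4.41 and 3.60 without stimulus and at 5.24 and 4.84 under anti-CD40, and its mean rise was 0.78 ± 0.24.

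Mitochondrial members called higher numbered 3, 1 and 4 of 15 in GC cells under anti-CD40, anti-IgM and both, beside 7.48%, 5.81% and 13.9% of all genes. In naive cells they numbered 4, 3 and 5, beside 13.9%, 15.3% and 20.7%. The 1 of 15 under anti-IgM in GC cells and the 3 of 15 in naive cells are near the share over all genes. With the block 6 in GC cells under anti-CD40 (16.9%), 3 in GC cells under anti-IgM (12.4%) and 6 in naive cells under anti-IgM (27.5%) were called higher. The member called lower was Hars2, the mitochondrial histidyl enzyme, in naive cells under both (-0.40 ± 0.15, 21.5% of all genes). Ears2, the mitochondrial glutamyl enzyme, was at 3.35 and 3.39 in unstimulated GC cells at 4 h and at 4.47 and 4.53 under anti-CD40, which did not overlap. It rose in GC cells under anti-CD40 (0.68 ± 0.14) and both (0.69 ± 0.14), and its response to both was larger there than in naive cells by 0.83 ± 0.20 (7.06% of all genes). Sars2, the mitochondrial seryl enzyme, rose in naive cells under both by 0.66 ± 0.15, and its response in GC cells was smaller by -0.79 ± 0.21.

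When stimuli were combined, the effect of both was compared with the sum of the single effects. In naive cells 3 cytosolic members fell short of the sum (1.6% of all genes), Yars by -0.79 ± 0.20, Gars by -0.66 ± 0.15 and Rars by -0.63 ± 0.12, and 9 with the block (10.3%). That count of 3 fell to 1 without replicate 2 of the 4 h group with both stimuli. In GC cells limma called 0 members, with 0 cytosolic members at an unadjusted p under 0.05. Anti-CD40 added to anti-IgM raised 5 cytosolic members in GC cells (7.14%), Tars, Iars (0.66 ± 0.16), Yars (0.62 ± 0.14), Lars (0.48 ± 0.11) and Rars (0.27 ± 0.08), and 10 with the block (15.1%). The count of 5 was 1 without replicate 2 of the 2 h group with both stimuli, and 3 without replicate 1 of the 2 h anti-IgM group or replicate 2 of the 4 h group with both. In naive cells it raised 0 by limma (3.05%), with 3 at an unadjusted p under 0.05, 5 with the block (11.9%) and 3 members over both classes without replicate 2 of the 2 h anti-IgM group.

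Unstimulated GC cells held less of most cytosolic synthetases than unstimulated naive cells. Of 20, 11 were lower in GC (29.6% of all genes) and 2 higher (24.1%), with a median of -0.45 against -0.07 for all genes. Wars (-1.01 ± 0.15), Farsb (-0.98 ± 0.19), Sars (-0.96 ± 0.12), Nars (-0.87 ± 0.18) and Tars (-0.85 ± 0.15) were furthest below. Qars (1.68 ± 0.34) and Aars (0.41 ± 0.15) were higher in GC. In set B same-numbered libraries deviated together within a cell type, so the 2 h and 4 h libraries behind these levels are not independent. The fit takes them as independent in each comparison of GC with naive levels of set B. Its SEs and adjusted p-values can therefore be too small, and a block within cell type does not mend this. Lars in unstimulated cells was at 6.53 and 6.52 at 2 h and 7.23 and 6.99 at 4 h in GC and at 7.33, 7.05, 8.01 and 7.90 in naive cells, with a difference of -0.76 ± 0.11, and at each time the GC libraries lay below the naive ones. Under anti-CD40, anti-IgM and both in set B 15, 16 and 15 cytosolic members were lower in GC (29.6%, 30.3% and 28.3%). The class medians there were -0.92, -0.80 and -0.67. In set A they were smaller in size, at -0.23 with anti-CD40, -0.16 with IL-21 and -0.18 with these combined. In that order 13, 12 and 13 cytosolic members of set A were lower in GC, beside 4335, 4351 and 4291 of 11258 genes. Higher in GC were 4, 2 and 2, beside 3929, 3770 and 3849 genes.

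Qars differed between replicate numbers too. In unstimulated GC cells it was at 7.48 and 6.83 at 2 h and 7.75 and 7.05 at 4 h, and in naive cells at 4.83, 5.66, 5.73 and 6.17. The cell types did not overlap. Replicate 1 was the higher in GC and the lower in naive cells at both times.

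Of 15 mitochondrial members 4 were higher in GC (24.1% of all genes), Sars2 (4.89 to 5.05 in GC and 3.59 to 4.49 in naive libraries, 0.87 ± 0.15), Cars2 (0.74 ± 0.19), Vars2 (0.72 ± 0.26) and Fars2 (0.68 ± 0.13). This count of 4 is near the share over all genes. Another 7 were lower (29.6%), led by Nars2 (-1.25 ± 0.23), the mitochondrial asparaginyl enzyme, and Mars2 (-0.95 ± 0.16). Myeloid, T cell and erythroid markers were higher in the naive libraries of set B, as given above.

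**Figure D4:**
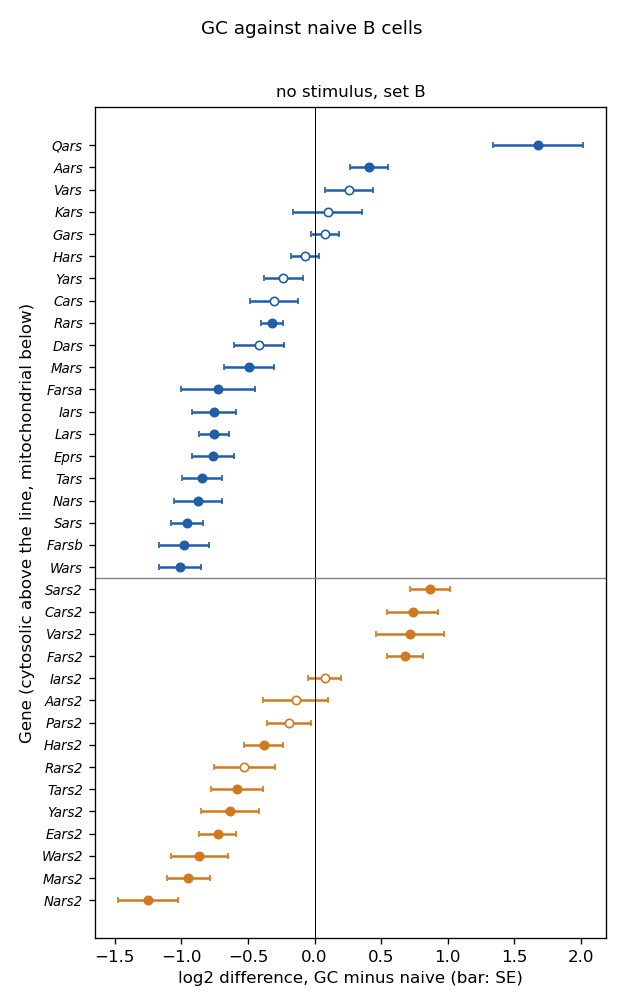
Log2 difference between unstimulated GC and naive cells of set B for each member, as points with SE bars, with values above 0 higher in GC and filled points where the adjusted p is under 0.05. Qars stands apart at 1.68 without stimulus, while Wars, Farsb and Sars lie near -1.

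In set A IL-21 was added to anti-CD40. In GC cells 7 cytosolic members rose (15.4% of all genes) and in naive cells 3 (10.6%), with no cytosolic member lower in either (17.8% and 13.7% of all genes lower). Farsb in GC cells at 4 h was at 7.43, 7.28 and 7.32 under anti-CD40 and 7.85, 7.84 and 7.80 with IL-21 as well, and Wars at 7.64, 7.39 and 7.46 and at 8.34, 7.99 and 7.94. Neither gene overlapped between the groups. The mean differences were 0.39 ± 0.05 (adjusted p = 6e-07) and 0.48 ± 0.08 (adjusted p = 8.64e-06) in GC and 0.34 ± 0.05 and 0.32 ± 0.07 in naive cells. Farsa, the other subunit of the phenylalanyl enzyme, rose by 0.33 ± 0.06 and 0.23 ± 0.05. The class median in GC cells was 0.03.

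Mars2 was the mitochondrial member with the largest rise, 0.64 ± 0.10 in GC and 0.55 ± 0.09 in naive cells. In GC cells at 2 h it was at 3.85 and 3.26 under anti-CD40 and at 4.23, 4.19 and 4.01 with IL-21. The groups did not overlap. Rars2 rose by 0.23 ± 0.08 and 0.25 ± 0.07, and in naive cells Wars2 rose by 0.35 ± 0.11 and Yars2 by 0.30 ± 0.08, while Hars2 fell (-0.23 ± 0.09). Given alone, IL-21 left Yars2 lower than anti-CD40 did, by -0.44 ± 0.09 in GC (adjusted p = 0.000174) and -0.62 ± 0.09 in naive cells (adjusted p = 1.16e-06). Anti-CD40 added to IL-21 raised Mars2 by 1.12 ± 0.09 in GC (adjusted p = 1.83e-11) and 0.66 ± 0.10 in naive cells, and Yars2 by 0.66 ± 0.08 and 0.92 ± 0.09. Among cytosolic members it raised 7 and lowered 2 in GC cells (25.6% and 31.1% of all genes). In naive cells it raised 5 and lowered 3 (26.6% and 28.6%). Of these counts only the 7 raised in GC cells exceed the share over all genes. Vars and Qars were lower in both cell types.

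**Figure D5:**
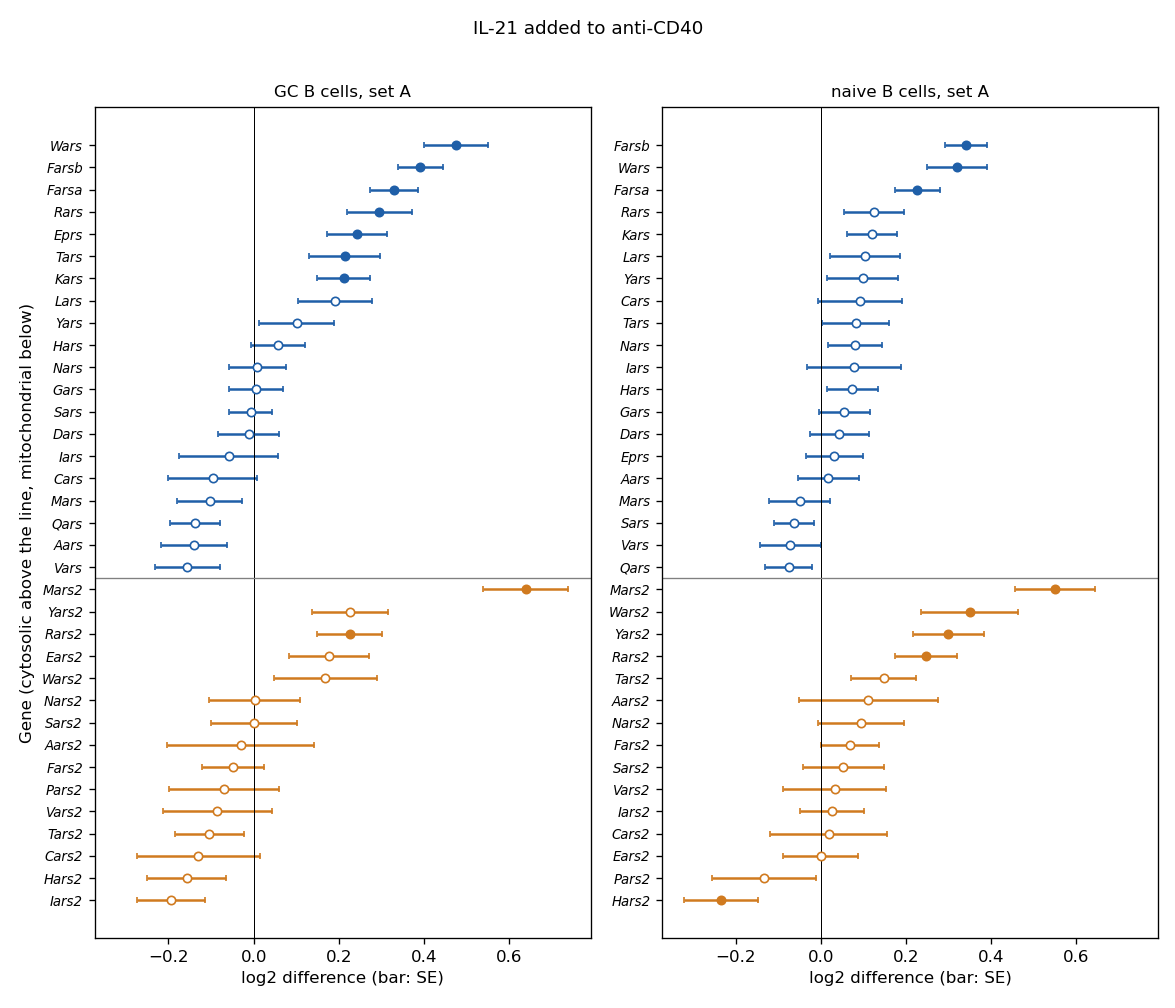
Log2 difference made by IL-21 added to anti-CD40 in set A for each member, in GC and naive cells, with bars for the standard error and filled points where the adjusted p is under 0.05. Mars2 (0.64 and 0.55), Wars (0.48 and 0.32) and Farsb (0.39 and 0.34) lie to the right.

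Genes around the synthetases were counted in lists. Under both stimuli 20.7% of all genes were called higher and 21.5% lower in naive cells, and 13.9% higher and 12.4% lower in GC cells. The complex scaffold has 3 genes, of which Eef1e1 and Aimp2 rose under both stimuli in naive (1.71 ± 0.29 and 1.07 ± 0.29) and GC cells (1.53 ± 0.29 and 1.03 ± 0.29), while Aimp1 stood at 0.37 (adjusted p = 0.335) and -0.02 (adjusted p = 0.972). Of the 8 synthetases of the complex 5 rose in naive and 3 in GC cells in that comparison. Of 24 amino acid response genes 17 rose and 1 fell in naive and 12 rose and 1 fell in GC cells, with Psat1 of serine synthesis at 2.11 ± 0.18 and Mthfd2 of mitochondrial folate metabolism at 2.03 ± 0.14 in naive cells. Eif2ak3, a kinase of the unfolded protein response, was the gene at -2.11 ± 0.23 in GC cells. Of 9 related aminoacylation genes measured 2 rose and 1 fell in naive cells, Sepsecs of selenocysteine synthesis (0.93 ± 0.14), Mtfmt (0.83 ± 0.22) and Pstk (-0.52 ± 0.19), and in GC cells Qrsl1 fell (-0.42 ± 0.13). Those related counts are near or below the shares over all genes, and with the block 4 rose in naive (31.8%) and 3 fell in GC cells (24.4%). Between 2 h and 4 h under anti-CD40 in naive cells of set B 13 of the 24 rose, beside 7.83% of all genes, with Aldh18a1 of proline synthesis at 2.77 ± 0.22 and the asparagine synthetase Asns at 2.29 ± 0.20.

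Of 20 genes of the RNA polymerase III apparatus, which transcribes tRNA genes, 8 rose (20.7% of all genes) and 2 fell (21.5%) in naive and 2 rose (13.9%) in GC cells under both stimuli, so that the last 2 counts lie below the share over all genes. With the block 5 rose (23.1%) and 4 fell (24.4%) in GC cells. Polr3d (1.46 ± 0.15 and 1.83 ± 0.15) and Polr3e (1.21 ± 0.14 and 1.53 ± 0.14) rose in both cell types, and Maf1, a repressor of the polymerase, was at -1.57 ± 0.31 in naive cells. Myc, a transcription factor of cell growth, rose by 3.08 ± 0.21 in naive and 3.40 ± 0.21 in GC cells under both. It rose by 1.51 ± 0.10 in GC and 0.63 ± 0.09 in naive cells when IL-21 was added to anti-CD40, and was lower in unstimulated GC than naive cells (-2.29 ± 0.21).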

How the data were processed

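RNA from bead-purified splenic B cells was extracted with RNeasy Plus Mini and amplified with SMART-Seq v4, per the labels' protocols. The submitters' processing notes name FastQC 0.11.7, Trim Galore 0.6.5, STAR 2.6.1a, Subread 2.0.1 with featureCounts, and limma, on mm10, with no role or order. The authors deposited 1 table of log2 values for each library, as the file headers and values show, and read counts were not used here. Tests were therefore made on the log2 scale, depth is unknown, and summed CPM comes from the back-transformed values. Whether reads were counted by strand is not given in the sources used here. Members that overlap a gene on the opposite strand are therefore uncertain. The largest such shares of exon bases were those of Iars2 (24.2%), Fars2 (10.7%), Farsb (9.47%, with Sgpp2), Vars2 (8.52%) and Hars (7.97%, with Hars2). Ddit3 overlaps 1.99% of Mars. Exosc6 overlaps 14.3% of Aars on the same strand, which counting by strand would not separate.

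The filter kept genes that exceeded 1 (log2) in 4 or more of the 66 libraries, and 11262 were tested in set B and 11258 in set A. limma 3.58.1 (statmod 1.5.0, R 4.3.3) was fitted within each set with 1 coefficient for each group, a mean-variance trend and robust moderation. A stimulus effect is the mean of its 2 h and 4 h effects. p-values were adjusted by Benjamini-Hochberg over all genes in each of 101 comparisons and called under 0.05, and all adjusted p-values come from this limma fit or, where stated, its fit with a block.

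Replicate numbers in the titles pair the libraries of set B within a cell type: deviations from group means correlated at 0.54 to 0.73 in all 32 GC and at 0.59 to 0.73 in all 32 naive pairs. Between GC and naive libraries the same number correlated at -0.75 to -0.53. The named members are the called ones with the largest change, up to 6 in each class, and those moving against most of their class. Library values are shown for the 2 cytosolic and 2 mitochondrial members with the smallest adjusted p in a comparison, and others shown were chosen after their values were seen. The members follow from symbols alone, but this gene family and the lists were picked for study with earlier results of these data known. Tests were checked on simulated data in which libraries varied independently. That check did not cover the shared deviations of same-numbered libraries in set B. The alternatives were the block, 1 fit over both sets, other filters, no trend, other scalings and leaving out 1 library.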

Additional observations from a re-analysis of the deposited data

Results flagged for a closer look

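These differences are listed because a test of the difference between groups was called by limma (adjusted p under 0.05), and none is explained here. Each value is a difference of log2 differences. Each was made within 1 library set.

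In the mean response to a stimulus, GC minus naive, the test called a few members for each stimulus. For anti-CD40 against none it was Gars at -0.65. For anti-IgM against none they were Gars at -0.74, Rars at -0.40 and Yars at -0.87. For anti-IgM plus anti-CD40 against none they were Gars at -0.64, Ears2 at 0.83 and Sars2 at -0.79. For anti-CD40 added to IL-21 they were Sars at 0.20, Wars at 0.34, Ears2 at 0.62, Mars2 at 0.46 and Tars2 at -0.47. Among all 11262 genes tested in set B, 300 were called above 0 and 164 below for anti-CD40. The calls were 566 and 430 for anti-IgM and 795 and 543 for both. For anti-CD40 added to IL-21 they were 1263 and 1132 of 11258 genes. Taken in either direction, the counts of members are near or below these shares.

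The change from 2 h to 4 h was compared between GC and naive cells, again GC minus naive, in comparisons chosen after the values were seen. In unstimulated cells it gave Rars at 1.07. In cells under anti-CD40 (set B) it gave Aars at -1.66. In cells under anti-IgM it gave Aars at -1.60, Gars at -0.95, Lars at -0.95 and Yars at -1.36. In cells under anti-IgM plus anti-CD40 it gave Fars2 at 1.36. In cells under anti-CD40 (set A) it gave Aars at -0.98, Cars at -0.62, Eprs at -0.40, Gars at -0.56, Kars at -0.71, Lars at -0.63, Nars at -0.46, Qars at -0.63, Rars at 0.69, Sars at -0.47, Yars at -0.63, Ears2 at 1.09, Fars2 at 0.68, Mars2 at 1.25, Nars2 at 0.76 and Tars2 at -0.67. In cells under IL-21 it gave Aars at -0.63, Dars at 0.49, Farsa at 0.45, Farsb at 0.31, Hars at 0.36, Mars at -0.59, Qars at -0.45, Rars at 0.68, Mars2 at 0.90 and Rars2 at 0.56. In cells under IL-21 plus anti-CD40 it gave Aars at -1.70, Cars at -1.24, Farsa at 0.57, Gars at -0.69, Lars at -0.72, Mars at -0.73, Nars at -0.62, Qars at -0.43, Rars at 0.57, Sars at -0.48, Vars at -0.60, Wars at 0.41, Yars at -0.92, Aars2 at -0.86, Fars2 at 0.45 and Iars2 at -0.40. A value above 0 means a larger rise or smaller fall in GC cells. Of all 11258 genes tested in set A, 1669 were called above 0 and 1601 below under anti-CD40. Under IL-21 these were 1092 and 1065, and under IL-21 plus anti-CD40 1242 and 1835. Of 11262 genes in set B, 68 and 62 were called without stimulus and 68 and 99 under anti-CD40. Under anti-IgM they were 80 and 61, and under both 93 and 51.

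The effect at 4 h minus the effect at 2 h, also chosen after the values were seen, was called for these members. Naive cells with anti-CD40 against none had Gars at 1.36, Lars at 1.06, Sars at 1.08, Tars at 1.47 and Yars at 1.43. Naive cells with anti-IgM against none had Gars at 1.11, Iars at 1.23, Lars at 0.92, Rars at 0.60, Tars at 1.33 and Yars at 1.32. Naive cells with anti-IgM plus anti-CD40 against none had Dars at 1.44, Farsb at 1.35, Gars at 1.15, Iars at 1.11, Lars at 0.77, Rars at 0.66, Sars at 0.89, Tars at 1.23 and Yars at 0.97. GC cells with IL-21 added to anti-CD40 had Aars at -0.56, Cars at -0.66, Farsa at 0.30, Kars at 0.78, Mars at -0.41, Vars at -0.44, Ears2 at -0.87 and Iars2 at -0.46. Naive cells with IL-21 added to anti-CD40 had Mars2 at 0.92. Shares over all genes are given above for the naive comparisons against none and are not given for IL-21 added to anti-CD40.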

How the results depend on the processing

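Direction was checked for called members between the times, between the cell types, and in the mean stimulus effects against none or of IL-21 added to anti-CD40. None of these changed direction. In the other comparisons only the counts of calls were compared. Counts of members called moved by more than 1.5 times mainly with the replicate block, a paired fit by title or file header number, and with 1 fit over both sets. Stimuli are against none unless added to another. A count is given as reported, then from the fit with the block (blocked) and from 1 fit, and the cause of these moves was not tested. They were anti-CD40 in GC cells 6 (15 blocked, 10 in 1 fit), anti-CD40 at 2 h in GC cells 0 (1 blocked), anti-CD40 at 4 h in GC cells 6 (21 or 22 blocked, 14 in 1 fit), anti-CD40 in naive cells 15 (23 blocked), anti-CD40 at 2 h in naive cells 1 (4 or 5 blocked, 2 in 1 fit) and anti-CD40 between the cell types 1 (6 or 7 blocked, 5 in 1 fit). Others were anti-IgM in GC cells 4 (8 blocked), anti-IgM at 2 h in GC cells 2 (4 blocked), anti-IgM at 4 h in GC cells 1 (6 or 5 blocked, 3 in 1 fit), anti-IgM in naive cells 15 (24 blocked), anti-IgM at 2 h in naive cells 2 (5 blocked) and anti-IgM between the cell types 3 (14 blocked, 10 in 1 fit). Further counts were both stimuli in GC cells 13 (23 blocked, 21 in 1 fit), both stimuli at 2 h in GC cells 4 (9 blocked), both stimuli at 4 h in GC cells 16 (25 blocked), both stimuli at 2 h in naive cells 5 (14 or 15 blocked, 10 in 1 fit), both stimuli between the cell types 3 (11 or 10 blocked, 8 in 1 fit) and anti-IgM added to anti-CD40 in GC cells 2 (9 blocked, 4 in 1 fit). There were also anti-IgM added to anti-CD40 in naive cells 4 (8 blocked, 7 in 1 fit), anti-CD40 added to anti-IgM in GC cells 5 (14 or 16 blocked, 13 in 1 fit), anti-CD40 added to anti-IgM in naive cells 0 (6 blocked, 2 in 1 fit), IL-21 added to anti-CD40 in GC cells 9 (4 in 1 fit), IL-21 added to anti-CD40 in naive cells 8 (3 in 1 fit) and anti-CD40 added to IL-21 in GC cells 17 (7 in 1 fit). Next came anti-CD40 added to IL-21 in naive cells 13 (6 in 1 fit), no stimulus from 2 h to 4 h in GC cells 0 (3 or 5 blocked, 1 in 1 fit), no stimulus from 2 h to 4 h in naive cells 11 (22 blocked, 17 in 1 fit), anti-IgM from 2 h to 4 h in GC cells 2 (13 blocked, 5 in 1 fit), both stimuli from 2 h to 4 h in GC cells 14 (25 blocked) and departure from the sum in naive cells 3 (11 or 13 blocked, 8 in 1 fit). Then came anti-CD40, 4 h less 2 h effect in GC cells 0 (9 or 8 blocked, 6 in 1 fit), anti-CD40, 4 h less 2 h effect in naive cells 5 (20 blocked, 14 in 1 fit), anti-IgM, 4 h less 2 h effect in naive cells 6 (17 blocked, 13 in 1 fit), both stimuli, 4 h less 2 h effect in GC cells 0 (11 blocked, 7 in 1 fit), both stimuli, 4 h less 2 h effect in naive cells 9 (17 or 18 blocked, 15 in 1 fit) and IL-21 added to anti-CD40, 4 h less 2 h effect in GC cells 8 (1 in 1 fit). Lastly came no stimulus from 2 h to 4 h between the cell types 1 (10 blocked, 8 in 1 fit), anti-CD40 (set B) from 2 h to 4 h between the cell types 1 (10 blocked, 5 in 1 fit), anti-IgM from 2 h to 4 h between the cell types 4 (13 or 14 blocked, 8 in 1 fit), both stimuli from 2 h to 4 h between the cell types 1 (4 blocked, 2 in 1 fit), anti-CD40 (set A) from 2 h to 4 h between the cell types 16 (9 in 1 fit) and IL-21 from 2 h to 4 h between the cell types 10 (2 in 1 fit). Also moved were IL-21 plus anti-CD40 from 2 h to 4 h between the cell types 16 (8 in 1 fit). The count for naive 2 h anti-CD40 against none was 0 without trend, with median centring and with quantile scaling. For GC minus naive 4 h against 2 h the unstimulated count was 3 with a stricter filter and 2 with quantile scaling, and that for anti-CD40 of set B was 2 with the stricter filter. 

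Fits that leave out 1 library, in which a lone sample is assumed to vary like the other groups, gave counts of anti-CD40 in GC cells 3 to 7, anti-CD40 at 2 h in naive cells 0 to 1, anti-CD40 at 4 h in naive cells 12 to 20, anti-CD40 between the cell types 1 to 2, anti-IgM in GC cells 2 to 4, anti-IgM at 2 h in GC cells 0 to 2 and anti-IgM at 2 h in naive cells 1 to 2. Others were both stimuli at 2 h in GC cells 1 to 4, both stimuli at 4 h in GC cells 10 to 16, both stimuli at 2 h in naive cells 3 to 7, anti-IgM added to anti-CD40 in GC cells 1 to 2, anti-IgM added to anti-CD40 in naive cells 1 to 4, anti-CD40 added to anti-IgM in GC cells 1 to 7 and anti-CD40 added to anti-IgM in naive cells 0 to 3. Further counts were no stimulus from 2 h to 4 h in naive cells 7 to 13, anti-CD40 (set B) from 2 h to 4 h in GC cells 6 to 16, anti-IgM from 2 h to 4 h in GC cells 0 to 2, both stimuli from 2 h to 4 h in GC cells 3 to 14, both stimuli from 2 h to 4 h in naive cells 11 to 18, departure from the sum in naive cells 1 to 4 and anti-CD40, 4 h less 2 h effect in naive cells 1 to 6. There were also anti-IgM, 4 h less 2 h effect in naive cells 1 to 6, both stimuli, 4 h less 2 h effect in naive cells 1 to 10, IL-21 added to anti-CD40, 4 h less 2 h effect in GC cells 2 to 9, no stimulus from 2 h to 4 h between the cell types 1 to 3, anti-IgM from 2 h to 4 h between the cell types 0 to 5, both stimuli from 2 h to 4 h between the cell types 0 to 2 and IL-21 from 2 h to 4 h between the cell types 5 to 13. 

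Same-numbered libraries of set A did not deviate together, since 4 of 40 GC and 5 of 40 naive pairs correlated over 0.1. With the block there 4 calls of named members were lost, Qars from 2 h to 4 h under anti-CD40 in GC cells (adjusted p = 0.0556), Dars between GC and naive cells under IL-21 (adjusted p = 0.0633), and in the change from 2 h to 4 h between the cell types Hars under IL-21 (adjusted p = 0.0561) and Aars2 under IL-21 plus anti-CD40 (adjusted p = 0.0584). Counts over all genes moved by more than 1.5 times in 44 of 67 comparisons with the block and in 46 in 1 fit. Depth is unknown, groups of 2 or 3 limit the precision, and the sets were normalized separately.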
